A study of Mus musculus with 42 samples.

Results

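Regulatory T cells (Treg) were compared 2 h after anti-CD3 was added to cultured splenocytes with Treg from splenocyte cultures taken at 0 h. The comparison was chosen by the sample titles. It took 4 of the 42 arrays of the series, a number 1 and a number 2 at each time, and paired each 2 h array with the 0 h array of its own number. The series followed Treg, and CD4+ T cells that are not Treg (Tconv), of the diabetes-prone NOD mouse strain after KT3, an anti-CD3 antibody that triggers the T cell receptor. KT3 was given either to the mouse or to cells in culture, and RNA was read at several times on Affymetrix ST1.0 gene arrays, which measure each transcript through many short probes. All culture groups used here were NOD mice homozygous for a Foxp3 reporter that marks Treg with green fluorescent protein (GFP), and their splenocytes were cultured with KT3 at 1.25 µg/ml for 0 h or 2 h before CD4+ cells were sorted. The labels give number 1 as female at 9 weeks and number 2 as male at 14 weeks, without saying whether the arrays of a number came from a single animal, so sex and age cannot be told apart from the number. The in vivo Treg used for comparison came from reporter females of 8 weeks, either not treated (0 h) or injected intravenously with KT3 2 h earlier; at both times number 1 was sorted once and number 2 was sorted again. No cells cultured for 2 h without KT3 were analysed here, so KT3 and time in culture cannot be told apart. The stimulated cultures were of whole spleen, so KT3 also reached the other T cells in them.

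The T cell receptor signals through calcium, MAP kinase and NF-kB pathways, and the first genes to answer are immediate early genes, which encode transcription factors and need no new protein to be switched on. Later genes, among them those of ribosome production and metabolism, follow as the cell grows. Treg are held in their state by the transcription factor Foxp3, restrain other T cells through surface molecules and cytokines such as IL-10 and TGF-beta, and make little IL-2 themselves.

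Levels are given as log2 of the deposited intensity, number 1 first, and changes as log2 differences (2 h minus 0 h) ± standard error from limma, with n = 2 arrays per group. Genes with an adjusted p under 0.05 were called, after Benjamini-Hochberg adjustment over the 12425 genes tested. The labels give the culture arrays of a group a different sex and age, so these came from different mice. For the in vivo Treg arrays of a group the labels give the same sex and age. The p-values reflect the spread between the arrays alone, part of which may be technical. The labels give the gate of the culture arrays titled Treg as GFP-negative, the gate of Tconv. Foxp3 itself went with the titles and not with that gate, at 11.52 and 11.85 at 0 h and 11.90 and 11.70 at 2 h in Treg, against 7.02 to 8.20 over all Tconv arrays of the series. The Treg 0 h array of number 1 had a narrow range of values, with an interquartile range of 2.19 log2 units against 2.76, 2.85 and 2.59 on the other Treg arrays. Among other-cell markers, none was called up. The mean of the plasma cell markers was nevertheless 5.65 and 5.73 at 0 h and 5.86 and 6.47 at 2 h. Of these, Jchain was at 5.06 and 5.43, then 5.61 and 6.64. Of the B cell markers 1 of 4 fell (Cd79b, 8.08 and 7.44 at 0 h, 6.80 and 6.79 at 2 h, a change of -0.97 that was not called without the 0 h array of number 1, at -0.75, or the 2 h array of number 1, at -0.83), and the mean level over the B cell markers was 6.08 and 5.79 at 0 h and 5.71 and 5.44 at 2 h. The mean of the macrophage markers was 6.60 and 6.37 at 0 h and 6.28 and 6.08 at 2 h, and that of the T cell markers 11.20 and 11.23, then 11.03 and 10.64. In such sorted bulk samples, fewer cells of a type and less RNA per cell cannot be told apart.

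Within 2 h, 890 of the 12425 genes tested changed in cultured Treg, which is 7.16%. On the deposited values 622 went up (5.01% of those tested) and 268 fell (2.16%). The split depended on the scaling and on the arrays used: 69.9% of the called genes rose on the deposited values, 83.8% after each array was centred on its median, 51.7% after quantile normalization and 61.4% after centring and scaling to 1 interquartile range. Without the 3 culture arrays of narrowest range, one of them the Treg 0 h array of number 1, the majority turned, with 482 genes up and 594 down (44.8% rose). Centring also moved the median change of all genes from -0.02 to 0.10. The count depended on single arrays as well, with 340 calls without the Treg 0 h array of number 1, 443 without the 2 h array of number 1, 511 without the 2 h array of number 2 and 1866 without the Tconv 0 h array of number 1, which enters only through the spread and the number term.

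Both numbers moved the called genes the same way. All 890 had the same sign in number 1 and in number 2, and in 889 both 2 h levels lay on 1 side of both 0 h levels. Over all genes tested, 22% had both 2 h levels above and 20.2% had both below. This agreement is partly built into the call, since a gene whose numbers disagree has a larger spread. Over all genes tested, called or not, 7055 (56.8%) had the same sign in both numbers. Changes of at least 2-fold in the same direction in both numbers were found for 296 genes (2.38%), 247 upward and 49 downward, while 3 genes moved at least 2-fold in opposite directions. In all, 1755 genes were past 2-fold in number 1 and 527 in number 2, both counts including the genes past it in both.

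The excess of large changes in number 1 went with signal level. Genes were put into 4 groups of equal size by mean level, and from the dimmest to the brightest the median change in number 1 was -0.30, -0.02, 0.29 and 0.34. The same groups gave 0.05, -0.03, -0.08 and -0.06 in number 2. Bright genes thus moved up and dim genes down as a group in number 1, the number with the narrow 0 h array, and not in number 2. This trend depended on the scaling: across genes, the correlation of the change in number 1 with mean level was 0.31 on the deposited values, 0.0032 after quantile normalization and -0.18 after interquartile scaling. Across the genes tested, the correlation of the change in number 1 with that in number 2 was 0.498; genes are not independent replicates.

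**Figure D1:**
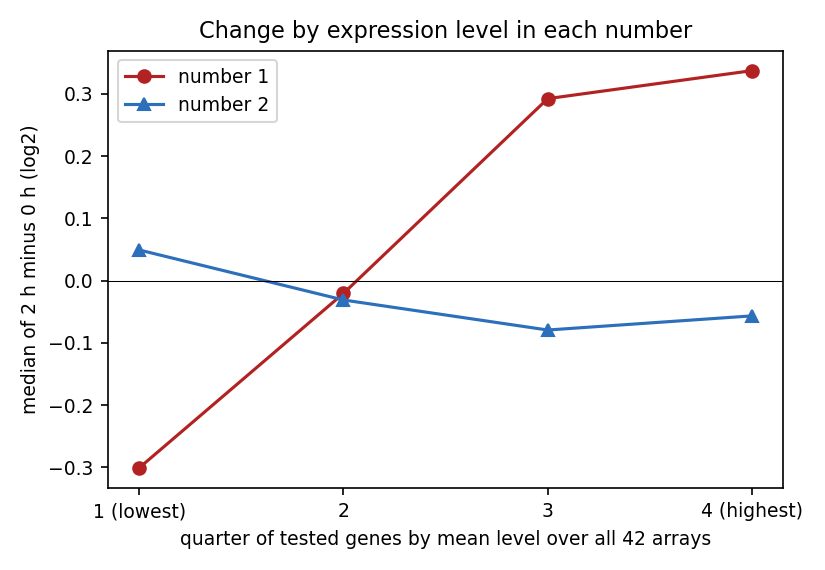
Change from 0 h to 2 h in log2 units (vertical axis) as the median over the genes of each of 4 groups by mean level (horizontal axis, dimmest to brightest), for each number. The median of number 1 goes from -0.30 in the dimmest group to 0.34 in the brightest, and that of number 2 stays between -0.08 and 0.05; values are as deposited, and the trend of number 1 is absent after quantile normalization and turned after interquartile scaling.

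**Figure D2:**
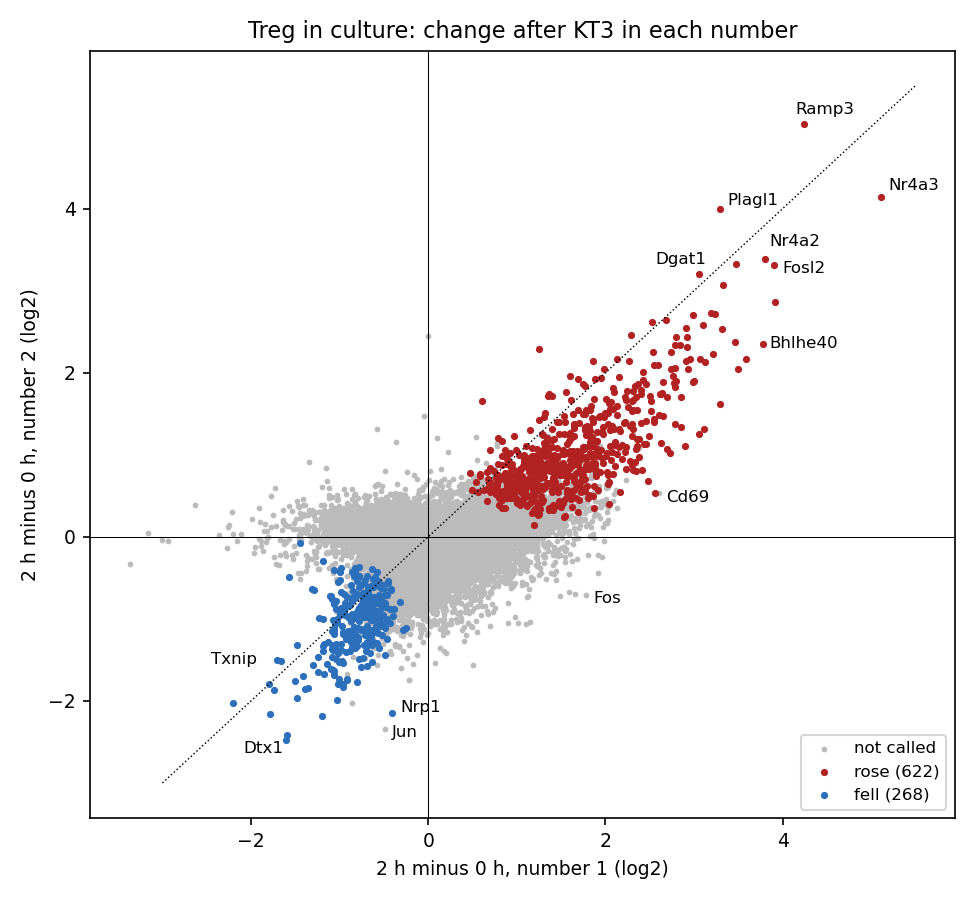
Log2 change (2 h minus 0 h) of each gene tested in number 1 (horizontal axis) against number 2 (vertical axis), with called genes in colour. The 622 risers lie in the upper right and the 268 fallers in the lower left, and Fos lies apart, up by 1.79 in number 1 and down by 0.71 in number 2.

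The largest rise was that of Ramp3, which encodes a protein that pairs with calcitonin-family receptors at the cell surface. It went from 7.86 and 6.92 at 0 h to 12.10 and 11.95 at 2 h, a change of 4.64 ± 0.27 (limma, adjusted p = 3.35e-11). Both 2 h arrays were far above both 0 h arrays. The nuclear receptor Nr4a3, an early reporter of T cell receptor signalling, rose almost as far, from 6.90 and 7.99 to 12.01 and 12.13 (4.63 ± 0.34, adjusted p = 2.01e-09). Its relatives Nr4a2 (6.46 and 6.98 to 10.26 and 10.37, 3.60 ± 0.22) and Nr4a1 (10.20 and 10.65 to 13.44 and 13.37, 2.98 ± 0.32) rose too, so that the whole NR4A family was up in both numbers.

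Plagl1, a zinc finger transcription factor, rose by 3.65 ± 0.28, from 6.53 and 6.70 to 9.82 and 10.69. Fosl2, a member of the AP-1 family, rose by 3.61 ± 0.25, from 7.55 and 7.63 to 11.46 and 10.95. Vps37b, a subunit of the complex that sorts membrane proteins for degradation, rose by 3.40 ± 0.28, from 8.37 and 8.21 to 11.84 and 11.54. In each of these genes the lowest 2 h level was above the highest 0 h level by more than the gap between the numbers. Ccr8, a chemokine receptor of activated Treg, went from 7.49 and 7.90 to 11.40 and 10.77 (3.39 ± 0.25), and Crem, a transcription factor that binds cyclic AMP response elements, from 6.32 and 6.77 to 9.65 and 9.84 (3.20 ± 0.28). Dgat1, which makes triglycerides, was the most even of the large risers, at 7.83 and 7.94 before and 10.89 and 11.14 after (3.13 ± 0.18). The remaining genes of largest rise were the transcription factor Bhlhe40 (3.06 ± 0.30), Phlpp1, a phosphatase that acts on Akt (2.96 ± 0.25), Gramd3 (2.92 ± 0.34), the zinc finger gene Zbtb10 (2.92 ± 0.28) and Gem, a small GTPase (2.88 ± 0.28). All of these kept their call without any single array.

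The largest falls were smaller than the largest rises. BC147527 fell from 8.15 and 7.82 to 5.95 and 5.80 (-2.11 ± 0.34), and Septin9, a GTP-binding protein of the cytoskeleton, from 10.50 and 10.50 to 8.89 and 8.02 (-2.04 ± 0.30). Dtx1, a ubiquitin ligase of the Notch pathway, fell from 10.21 and 10.47 to 8.62 and 8.06 (-2.0 ± 0.28). Zbtb7b, the factor that commits T cells to the CD4 lineage, fell by 1.80 ± 0.28 on the log2 scale, to 8.02 and 8.20. Gpr83, a receptor enriched in Treg, dropped from 10.50 and 10.92 to 9.02 and 8.95 (-1.73 ± 0.22). Txnip, which restrains glucose uptake, dropped from 12.33 and 12.27 to 10.62 and 10.77 (-1.60 ± 0.27). None of these overlapped between the times, which the rule for naming them required. Nxpe3 (-1.97), Sh2d3c (-1.80), Tmem229b (-1.63) and Ccdc69 (-1.60) completed the group of largest falls together with BC018473 and Fam78a. The last pair lost its call without single arrays: BC018473 (-1.69) at -1.43 without the 0 h array and -1.41 without the 2 h array of number 2, and Fam78a (-1.62) at -1.36 without the latter.

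**Figure D3:**
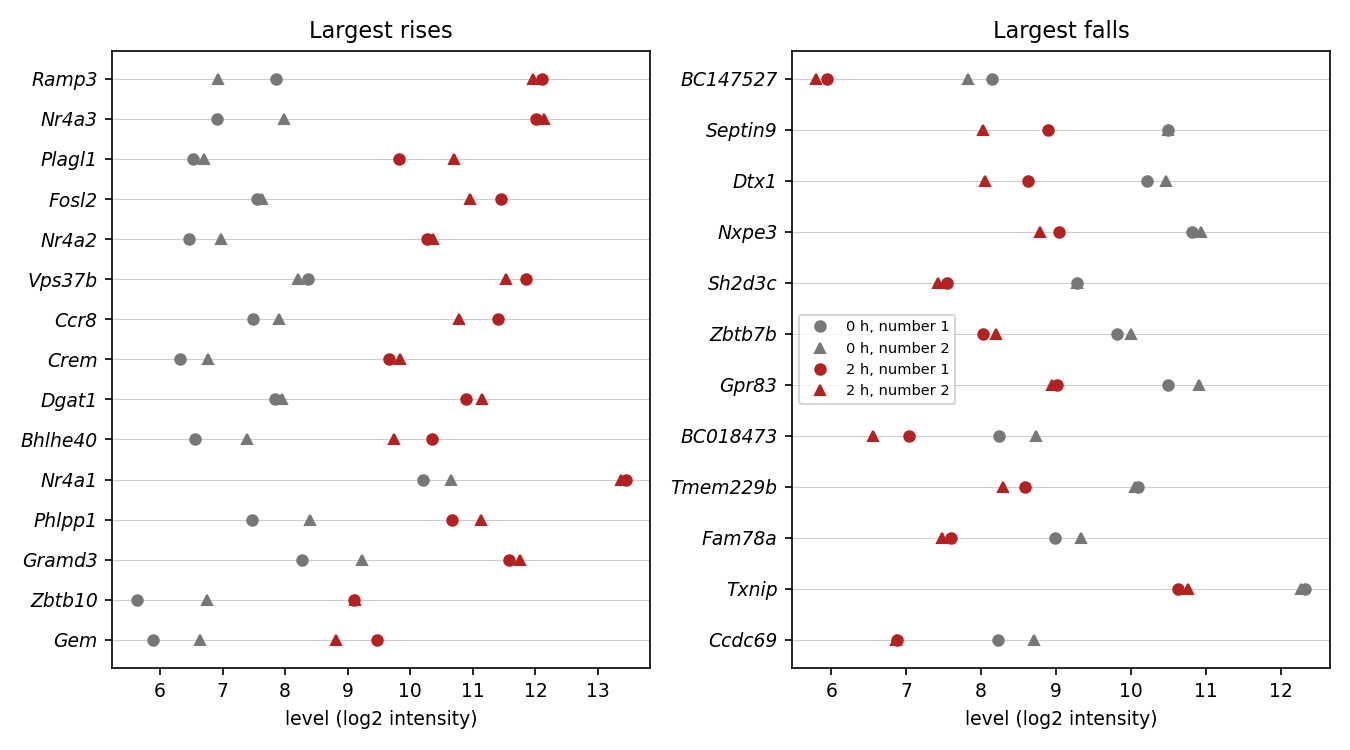
Log2 level on the 4 Treg culture arrays (horizontal axis) for the genes of largest rise and largest fall (vertical axis), with grey points for 0 h, red points for 2 h, circles for number 1 and triangles for number 2. Ramp3 moved from 7.86 and 6.92 to 12.10 and 11.95, and Septin9 from 10.50 and 10.50 to 8.89 and 8.02.

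Among 25 gene lists that cover responses of T cells, 77 of 313 tested members rose (24.6%, against 5.01% of all genes tested) and 11 fell (3.51%, against 2.16%), 88 in all and 56 without the 0 h array of number 1. All list counts below are to be read against these shares of all genes tested. The lists were chosen for T cell responses with earlier results of these data known, so part of the excess may be built in. The immediate early transcription factors stood highest: 12 of 20 tested rose and 0 fell, with a median change of 1.66 against -0.02 over all genes tested. Beside the NR4A genes these were the EGR family, AP-1 members and partners. Egr2, which restrains T cell activation, went from 7.92 and 8.51 to 10.71 and 10.33 (2.31 ± 0.29), Egr1 rose by 1.78 ± 0.30 and Egr3 by 1.67 ± 0.21. Irf4, a factor needed for effector Treg, rose from 7.23 and 8.07 to 10.14 and 10.22 (2.53 ± 0.27). Nfil3 (1.99) and Atf3 (1.62) were called as well, and Fosb (1.66 ± 0.32) was called but not without the 0 h array of number 1 (1.24).

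Some other genes that respond early in T cells did not pass the test. Fos was at 8.26 and 10.44 at 0 h and 10.05 and 9.73 at 2 h, so its numbers went opposite ways. Jun was at 10.01 and 10.97, then 9.52 and 8.63 (-1.42, adjusted p = 0.0575), both 2 h levels being the lower. Myc, the driver of growth in activated T cells, was at 8.72 and 9.17, then 9.71 and 9.72 (0.77 ± 0.44), with both 2 h levels above both 0 h levels but within the spread of the fit. The surface activation marker Cd69 was at 8.78 and 10.76, then 11.38 and 11.28 (1.57 ± 0.52, adjusted p = 0.0685), and most of its difference came from number 1.

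The NF-kB and NFAT list rose next, with 9 of 15 up and 0 down (median 1.18). Rel, the NF-kB subunit on which activated T cells depend, went from 8.94 and 10.08 to 11.89 and 12.24 (2.56 ± 0.33). Tnfaip3, a deubiquitinase that shuts NF-kB signalling down, went from 9.40 and 10.76 to 12.26 and 12.47 (2.28 ± 0.33), and Nfkbid, a nuclear inhibitor-like protein of NF-kB, from 8.05 and 8.73 to 10.48 and 10.64 (2.17 ± 0.31). Nfkb2 rose by 1.95 ± 0.18 with hardly any spread, from 9.15 and 9.26 to 11.24 and 11.08. Feedback on the MAP kinases was read from 11 genes, of which 4 rose and 0 fell (median 0.65). These included the phosphatases Dusp10 (8.40 and 8.66 to 11.33 and 11.11, 2.68 ± 0.27), Dusp4 (2.27 ± 0.26) and Dusp5 (2.06 ± 0.32). The remaining member, Spred2 (0.96), lost its call without the 0 h array (0.70) or the 2 h array (0.63) of number 1.

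The cyclic AMP response element is a DNA motif with the letters TGACGTCA, bound by factors of the CREB, ATF and Crem group. It reads the same on both strands. RefSeq promoter windows (GRCm38.p6, 250 bases before to 50 after each start) were matched to 479 of the 622 genes that rose, and 40 of these held the motif, which is 8.35%. The share was 3.50% over the genes tested (347 of 9919 matched), 1.79% over all 32851 windows of that length and 1.49% over the genes that fell (3 of 202). Of the matched genes among those of largest rise, 0 of 8 held it. To show the motif in its setting, the bases before the start are given for 4 of the genes that rose and held it there. These had the largest rise among the genes considered for display, which did not cover every chromosome, so a larger riser may be missing. The motif is in capitals and the rest in lower case, 5′ to 3′ on the gene's own strand.
Ell2: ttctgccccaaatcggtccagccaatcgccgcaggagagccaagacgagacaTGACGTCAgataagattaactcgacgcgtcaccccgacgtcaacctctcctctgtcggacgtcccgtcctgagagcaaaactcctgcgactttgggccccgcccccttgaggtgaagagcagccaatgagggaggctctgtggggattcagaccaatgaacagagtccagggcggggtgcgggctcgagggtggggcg
Tubb2a: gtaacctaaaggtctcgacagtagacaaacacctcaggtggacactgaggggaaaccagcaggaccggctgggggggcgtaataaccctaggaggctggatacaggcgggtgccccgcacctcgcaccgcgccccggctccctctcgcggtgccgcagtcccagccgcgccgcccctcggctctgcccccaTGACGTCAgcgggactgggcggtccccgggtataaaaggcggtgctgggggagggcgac
Nfkbid: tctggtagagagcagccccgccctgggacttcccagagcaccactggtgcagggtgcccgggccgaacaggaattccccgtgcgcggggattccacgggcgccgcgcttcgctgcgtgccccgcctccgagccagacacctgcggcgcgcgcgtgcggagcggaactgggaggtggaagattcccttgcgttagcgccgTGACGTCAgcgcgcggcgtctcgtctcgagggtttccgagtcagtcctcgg
Errfi1: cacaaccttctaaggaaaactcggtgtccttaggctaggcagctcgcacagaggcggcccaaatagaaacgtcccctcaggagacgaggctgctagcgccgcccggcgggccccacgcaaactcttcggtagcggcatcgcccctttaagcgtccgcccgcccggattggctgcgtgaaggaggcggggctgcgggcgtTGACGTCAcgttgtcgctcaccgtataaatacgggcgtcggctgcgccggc
Ell2, an elongation factor of RNA polymerase II, rose by 2.61 and lies at chr13:75707234-75707483 on the plus strand, with the motif starting 198 bases before the start. Tubb2a, a beta tubulin, rose by 2.19 (chr13:34078009-34078258, minus strand, 59 bases before). Nfkbid rose by 2.17 (chr7:30422156-30422405, plus strand, 51 bases before). Errfi1, an inhibitor of the EGF receptor, rose by 1.97 (chr4:150854820-150855069, plus strand, 51 bases before). A match is a description of letters and not a bound site. The other motifs, searched on both strands, had more even shares. The AP-1 letters TGANTCA were found for 6.89% of matched risers, 6.09% of matched genes tested and 8.42% of matched fallers. The E-box CACGTG, bound by Myc and its partners, was found for 12.5%, 11.6% and 12.9%. For each motif, a gene was counted if any of its windows held it. Over all windows, each counted singly and not by gene, the AP-1 and E-box shares were 7.81% and 7.15%. The motifs were searched separately, and matches of different motifs may overlap.

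Of 19 cytokine and chemokine genes tested in Treg, 3 rose and 0 fell, against 5.01% and 2.16% of all genes tested, with a median of -0.05, and 1 was called without the 0 h array of number 1 or without either 2 h array. Il10, the suppressive cytokine of effector Treg, was the clearest, from 5.54 and 6.26 at 0 h to 8.54 and 8.17 at 2 h (2.45 ± 0.28, limma, adjusted p = 1.39e-06). Both 2 h levels were well above both 0 h levels. Tgfb1 rose by 0.89 ± 0.22, a call that was lost without the 0 h array of number 1 (0.83) and without the 2 h arrays of number 1 (0.84) or number 2 (0.94). Lif, a cytokine of the IL-6 family, rose by 1.18 ± 0.36, a call lost without any of the 4 arrays (1.04 to 1.32). Il2 (0.09), Il21 (-0.07) and Tnf (0.65, adjusted p = 0.203) were not called.

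The receptors of activation and costimulation moved more: 7 of 15 rose and 0 fell, with a median of 0.94, and 4 were called without either array of number 1. Icos, a costimulatory receptor of the CD28 family, went from 9.68 and 10.52 to 12.01 and 12.36 (2.09 ± 0.27). Tnfrsf9 (4-1BB) went from 9.99 and 9.71 to 11.54 and 11.48 (1.66), and Cd83 rose by 1.69. Tnfrsf4 (OX40) rose by 1.48, which was not called after scaling to 1 interquartile range (1.10). Il2ra, the alpha chain of the IL-2 receptor, was not called at 2 h, at 9.91 and 10.77 before and 10.59 and 10.82 after.

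Of the inhibitory receptors 4 of 6 rose and 0 fell (median 1.15), with 1 called without the 0 h array of number 1 and 2 without the 2 h array of number 2. Pdcd1 (PD-1) had the most even rise, from 9.23 and 9.10 to 11.11 and 11.02 (1.90 ± 0.18). Ctla4, which removes costimulatory ligands from other cells, rose by 1.33 ± 0.29, and was not called when the 0 h array of number 1 was left out (0.93). Cd200 (1.09) was lost without that array (0.71) and without the 2 h array of number 2 (0.90), and Tigit (1.22) without these (1.06 and 1.19) and without the 2 h array of number 1 (1.26).

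Among 9 genes of STAT5 and SOCS, 3 rose and 1 fell (median 0.34), against 5.01% and 2.16% of all genes tested. Without the 2 h array of number 1, 2 were called. Stat5a, which carries the IL-2 signal, went from 9.91 and 9.78 to 11.89 and 11.83 (2.01 ± 0.16), and Stat5b rose by 1.37 ± 0.27. The kinase gene Pim1 rose by 1.09, which was lost without the 0 h array (0.91) or the 2 h array (0.95) of number 1. The feedback genes Cish (0.53) and Socs1 (0.34) were not called. Socs2, a further feedback inhibitor, fell from 7.77 and 8.46 to 7.08 and 7.18 (-0.98), and its call was lost without the 0 h array of number 2 (-0.60) and without the 2 h arrays of number 1 (-0.93) and number 2 (-1.03).

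Genes of Treg identity and suppression moved in both directions, with 5 of 18 up, 3 down and a median of 0.02. Without the 2 h array of number 2, 5 were called in all. Foxp3 did not pass the test (0.12 ± 0.27, adjusted p = 0.845), and its 2 h levels lay among the 0 h levels and slightly above. Lrrc32 (GARP), which holds latent TGF-beta on the Treg surface, rose from 9.12 and 9.29 to 11.64 and 11.91 (2.57 ± 0.25). Itgb8, a subunit of the integrin that frees TGF-beta from its latent form, rose from 7.08 and 8.17 to 9.04 and 10.10 (1.94 ± 0.27), by nearly the same step in each number. Swap70, a signalling adaptor, rose by 1.44 ± 0.22, from 7.77 and 7.88 to 9.24 and 9.28. Plagl1, described above, was also in the list. Ikzf4 (Eos), a partner of Foxp3, rose by 0.94 and lost its call without the 0 h array of number 1 (0.58) and without the 2 h arrays of number 1 (0.94) and number 2 (0.95).

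Beside Gpr83, the surface receptors Nrp1 and Izumo1r, both typical of resting Treg, fell. Nrp1 went from 9.02 and 10.13 to 8.61 and 7.98 (-1.28), and its call was lost without the 0 h array (-0.76) or the 2 h array (-0.83) of number 2. Izumo1r (folate receptor 4) fell by 0.96 on the log2 scale and lost its call without the same arrays (-0.62 and -0.78). Ikzf2 (Helios), at 9.35 and 10.84 before and 10.33 and 11.14 after, and the ectoenzyme gene Nt5e, at 9.16 and 10.04, then 9.60 and 9.87, were not called and overlapped between the times.

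Of 17 genes of quiescence and homing, 3 rose and 2 fell, with a median of 0.32, and 3 were called without the 0 h array of number 1 or without either 2 h array. Ccr7, which guides T cells to lymph nodes, rose from 11.01 and 10.96 to 13.11 and 12.72 (1.93 ± 0.20), and the chromatin organiser Satb1 rose by 1.53 ± 0.27, from 11.04 and 11.72 to 12.81 and 13.02. Foxp1, a factor of naive T cells, rose by 1.13, which was lost without the 0 h array (0.77) or the 2 h array (1.08) of number 1 and the 2 h array of number 2 (1.19). Id3, an inhibitor of E proteins, fell by 0.88 on the log2 scale and lost its call without any of the 4 arrays (-1.01 to -0.74). Klf2, which keeps T cells quiescent, was not called (0.03).

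Few genes of ribosome biogenesis, heat shock, replication, G1 phase and glycolysis were called at 2 h. Of all 12425 genes tested, 7.16% were called and 2527 had an unadjusted p under 0.05 by limma. These lists are short, and whether their shares differ from those of all genes was not tested. By limma with adjusted p, ribosome biogenesis had 0 of 20 called (median 0.09), heat shock 0 of 10 (-0.02) and replication and mitosis 0 of 14 (-0.00). At an unadjusted p under 0.05 these lists had 2, 0 and 1, and each had 1 called when the Tconv 0 h array of number 1 was left out. G1 cyclins and inhibitors had 1 of 10 called, which fell, and glycolysis 1 of 13, which fell (2 without the 0 h array of number 2 or the Tconv 0 h array of number 1). The faller of the glycolysis list was Slc2a3, a glucose transporter, from 10.42 and 10.69 to 9.62 and 9.44 (-1.03 ± 0.18). The G1 gene was Cdk4 (-0.99), whose call was lost without the 0 h array of number 1 (-0.80) and without the 2 h array of number 2 (-0.62). In the Myc network 3 of 10 rose. Odc1, the first enzyme of polyamine synthesis, went from 9.04 and 9.19 to 11.95 and 11.73 (2.73 ± 0.20), and the Myc antagonists Mxi1 (7.60 and 7.94 to 9.95 and 9.64, 2.02 ± 0.18) and Mxd1 (1.66 ± 0.24) rose with it.

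Cholesterol synthesis had a higher median than the glycolysis list, with 4 of 8 up, 0 down and a median of 0.76. The list had 2 called without the 0 h array of number 1, 1 without the 2 h array of number 1 and 2 without that of number 2. Cyp51, an enzyme late in the sterol pathway, went from 6.51 and 6.96 to 8.37 and 8.36 (1.63 ± 0.29). The calls of the other members depended on single arrays: Idi1 (1.63 ± 0.42) was lost without the 0 h array of number 1 (1.13) and the 2 h arrays of number 1 (1.59) and number 2 (1.66), Hmgcs1 (1.31) without the same arrays (1.21, 1.28 and 1.34), and Insig1 (1.13) without the 0 h array of number 2 (0.98) and the 2 h array of number 1 (0.93). Of 14 genes of the ATF4 pathway 2 rose, against 5.01% of all genes tested (4 were called without the Tconv 0 h array of number 1). These were Slc7a1, a carrier of basic amino acids (1.43 ± 0.24), and Sesn2 (0.81), which lost its call without any of the 4 arrays (0.78 to 0.84).

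Of 9 genes of the BCL2 family and death receptors 2 rose and 0 fell (median 0.39), against 5.01% and 2.16% of all genes tested. Both risers promote cell death. Bcl2l11 (BIM) went from 8.26 and 8.80 to 10.76 and 10.52 (2.11 ± 0.24) and Pmaip1 (NOXA) from 7.45 and 8.65 to 10.14 and 9.72 (1.88 ± 0.30). The survival genes Mcl1 (-0.24 ± 0.31) and Bcl2 (-0.32 ± 0.33) were not called.

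Among 12 factors of T helper lineages 3 rose and 0 fell (median 0.35), against 5.01% and 2.16% of all genes tested. Bcl6, the repressor that directs follicular T cells, rose most, from 7.83 and 8.56 to 10.90 and 10.72 (2.61 ± 0.31). The ligand-activated factor Ahr rose by 1.35 ± 0.22. Runx3 (0.87) lost its call without the 0 h array (0.54) or the 2 h array (0.60) of number 1. Of 13 receptors for polarizing cytokines 4 rose and 2 fell, with 3 called without either 0 h array or without the 2 h array of number 1. The clearest were both chains of the interferon gamma receptor, Ifngr1 (1.62 ± 0.30; 1.30 and not called after scaling to 1 interquartile range) and Ifngr2 (1.62 ± 0.31).

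RNA decay factors had 4 of 10 up and 0 down, against 5.01% and 2.16% of all genes tested, with a median of 0.98. In this list 1 was called without either array of number 1 and 2 without the 2 h array of number 2. Zc3h12c, a ribonuclease of the Regnase family, went from 6.05 and 5.95 to 7.44 and 7.26 (1.35 ± 0.23). Its relative Zc3h12a (Regnase-1) rose by 1.20, which was lost without the 0 h array (0.76) or the 2 h array (1.07) of number 1. Rgs2, which speeds the end of G protein signals, was among the larger single changes of the remaining lists, from 7.78 and 9.08 to 11.28 and 11.13 (2.77 ± 0.51), and it lost its call without the 0 h array of number 1 (2.18). Of 12 interferon-stimulated genes 1 rose, against 5.01% of all genes tested. This was Cxcl10, from 6.39 and 7.21 to 9.45 and 8.47 (2.16 ± 0.43), a call lost without the 0 h array (1.69) or the 2 h array (1.62) of number 1.

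**Figure D4:**
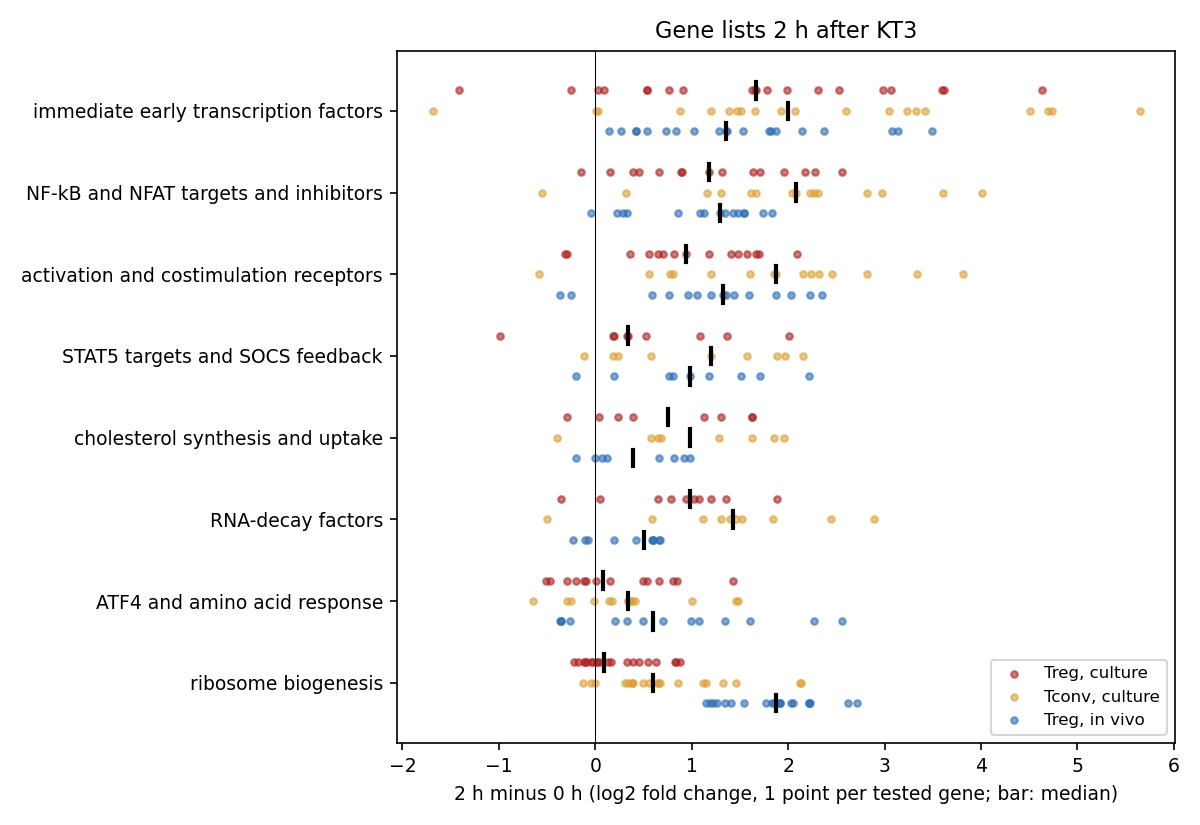
Log2 change at 2 h (horizontal axis) of each tested gene, 1 point per gene, in 8 of the lists (vertical axis), for Treg in culture, Tconv in culture and Treg in vivo, with a bar at the median. Ribosome biogenesis has a median of 0.09 in cultured Treg and 1.88 in Treg in vivo, and the immediate early factors have 1.66 in cultured Treg.

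Tconv of the same cultures give the comparison of cell types. The change in Treg minus the change in Tconv was called for 25 of 12425 genes (0.201%), 16 higher in Treg (0.129%) and 9 lower (0.0724%). This split was not stable: it was 13 higher and 17 lower after interquartile scaling, 23 and 1 without the Treg 0 h array of number 2, and 1033 and 3846 without the Tconv 0 h array of number 2. Over Tconv in culture 4211 genes (33.9%) were called at 2 h. The Tconv 0 h array of number 1 had the narrowest range of all arrays, with an interquartile range of 1.64, and the count of response differences went to 4879 when it was left as the only Tconv 0 h array. The count was 10 without the Treg 0 h array of number 1, 5 and 9 without the Treg 2 h arrays and 11 without the Tconv 2 h array of number 1. Array weights left 0 calls and the 20 culture arrays alone left 2, against 1376 genes at an unadjusted p under 0.05 on all arrays.

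Plagl1 and Lrrc32 differed most between the cell types. In Tconv, Plagl1 was at 6.86 and 5.73 at 0 h and 6.37 and 6.43 at 2 h, against the rise in Treg given above (difference 3.54 ± 0.39). Lrrc32 was at 7.39 and 6.75, then 6.63 and 6.66 in Tconv (difference 2.99 ± 0.35). Both calls held without each single array and were lost only with array weights. Slc16a3, a lactate exporter (2.34), Itgb8 (2.26) and Zc3h12c (1.85) were also higher in Treg, with calls that were lost without several of the single arrays. Where the call was lost, the differences were 1.89 to 2.40, 1.83 to 2.07 and 1.67 to 1.87.

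The 5 largest differences toward a lower change in Treg followed. Tnf, an inflammatory cytokine, went from 8.20 and 9.28 to 11.43 and 11.82 in Tconv, a difference of -2.25 (from -2.32 to -1.67 where single arrays lost the call). Fasl, the death ligand, was at 5.83 and 6.03 and then 6.93 and 6.64 in Treg, and at 6.37 and 6.84 and then 9.95 and 9.36 in Tconv (-2.20, from -2.33 to -1.89). Irf4 (-2.21, from -2.10 to -1.67), Egr2 (-2.20, from -2.37 to -1.76) and the semaphorin gene Sema7a (-2.0, from -2.05 to -1.67) differed in the same direction. Each of these calls was lost without at least 1 Treg array and at least 1 Tconv array. In Tconv, Irf4 was at 5.91 and 6.10, then 10.63 and 10.86, and Egr2 at 6.84 and 7.57, then 11.70 and 11.71. At 0 h both genes were thus higher in Treg than in Tconv. Sema7a was at 7.13 and 6.88, then 7.21 and 7.23 in Treg. In Tconv it was at 7.74 and 7.33, then 9.49 and 10.02.

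Treg of KT3-injected mice give the comparison of settings. The change in culture minus the change in vivo was called for 603 genes (4.85%), 280 higher in culture (2.25%) and 323 lower (2.60%). The split was 335 and 693 without the 3 culture arrays of narrowest range, and it turned to 368 and 241 without the Treg culture 0 h array of number 2. In comparison, 970 genes (7.81%) were called in vivo at 2 h. On the in vivo Treg arrays the mean of the B cell markers was 7.22 and 5.64 at 0 h and 7.50 and 5.49 at 2 h. That of the macrophage markers was 7.30 and 5.82, then 7.06 and 5.66. Both means were thus higher in number 1, which was sorted once. The route of KT3, the cells' surroundings, the sorting, and the age and sex of the mice differ between the settings and cannot be told apart. The count was 329, 388 and 374 without the Treg culture arrays other than that of number 2 at 0 h, 302, 392 and 277 without the in vivo arrays other than that of number 2 at 2 h, and 1231 without the Tconv 0 h array of number 1.

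Several of the largest risers of culture were not called in vivo at 2 h. Ramp3 was at 7.44 and 7.23 in untreated mice and 7.42 and 7.25 after injection (difference 4.63 ± 0.37). Bcl6 was at 8.39 and 8.42, then 7.44 and 7.38 in vivo, against its rise in culture (3.61 ± 0.44). Its change in vivo was -0.99 and just missed the call (limma, adjusted p = 0.0501). Vps37b (3.39) and Nr4a2 (3.17) were higher in culture as well. Rnf125, a ubiquitin ligase, went from 8.31 and 9.05 to 11.10 and 11.11 in culture and had a difference of 3.12. Phlpp1 (3.07), Dgat1 (3.01), Dusp10 (2.82), Mxi1 (2.62) and Pdcd1 (1.79) were called in the same direction. In vivo Mxi1 was called lower at 2 h (-0.59), and Rnf125 changed by -0.70 without a call.

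The largest differences in the other direction were those of 5 single genes. Tbx21 (T-bet), the factor of type 1 helper cells, was at 7.36 and 6.69, then 7.20 and 7.06 in culture, and went from 7.10 and 6.96 to 10.63 and 10.49 in vivo (-3.42 ± 0.48). Gadd45g, a stress sensor (-3.27), Mfsd2a, a lipid carrier (-3.24), Lif (-3.01) and Hk2, the hexokinase of activated cells (-3.01), had differences of like size. In cultured Treg these last 4 genes were at or below 7.53 on every array at both times. The calls of the 5 largest differences in each direction held without each single array.

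Ribosome biogenesis differed as a list. Of its 20 tested members 14 were called lower in culture than in vivo and 0 higher, with a median difference of -1.57; in vivo 18 rose (median 1.88), where 5.85% of all genes tested rose and 1.96% fell. Over the alternatives 8 to 18 were called lower and 0 higher, with 8 called without the culture 2 h array of number 2, without the in vivo 2 h array of number 1, and after interquartile scaling with no replicate block. Polr1b, a core subunit of RNA polymerase I, was at 7.46 and 7.50, then 7.58 and 7.42 in culture, and went from 7.70 and 7.62 to 10.10 and 9.66 in vivo. Rrs1, an assembly factor of the large subunit, was at 7.87 and 7.74, then 7.87 and 7.57 in culture, and went from 7.15 and 7.12 to 9.84 and 9.86 in vivo. The culture arrays at 2 h stood at the level of their 0 h arrays for both genes.

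Of the 9 genes of STAT5 and SOCS, 3 were called lower in culture and 2 higher, against 2.60% and 2.25% of all genes tested. The lower ones were the feedback genes Cish (-1.69 ± 0.31), Socs2 (-2.49 ± 0.35) and Socs1. The call of Socs1 was lost without 6 arrays taken singly (-1.42 to -1.08). The higher ones were Stat5a (0.83, lost without 8 arrays taken singly) and Stat5b (1.56, lost without 4). Gpr83 had opposite changes, since it fell in culture and was up by 0.77 in vivo (difference -2.49 ± 0.31). Myc had a difference of -2.37, which was not called without any of the 8 arrays taken singly (-2.61 to -2.13). Ccr7 was higher in culture by 2.20 (1.86 and not called after scaling to 1 interquartile range with no replicate block).

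The later culture arrays share the 0 h arrays with the 2 h comparison, so only levels are set side by side. Ramp3 was at 12.10 and 11.95 at 2 h, 10.22 and 9.82 at 8 h, 8.92 and 9.14 at 24 h and 8.79 and 8.50 at 72 h. Nr4a3 was at 10.46 and 10.03 at 8 h and 9.67 and 9.63 at 72 h. The levels of both genes were highest at 2 h on every array. Il10, at 8.54 and 8.17 at 2 h, was back at 6.01 and 5.73 at 8 h, and Bcl6 at 8.36 and 8.09.

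Other genes reached their highest levels later. Myc was at 10.92 and 10.44 at 8 h and 10.79 and 10.92 at 24 h, above both of its 2 h levels. Il2ra was at 11.95 and 11.83 at 8 h. Polr1b was at 9.18 and 8.45 at 8 h and 8.77 and 8.98 at 24 h, above all of its 0 h and 2 h levels. Gpr83, low at 2 h, was at 11.22 and 11.06 at 8 h and 11.41 and 11.17 at 24 h, and then at 8.37 and 8.43 at 72 h.

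**Figure D5:**
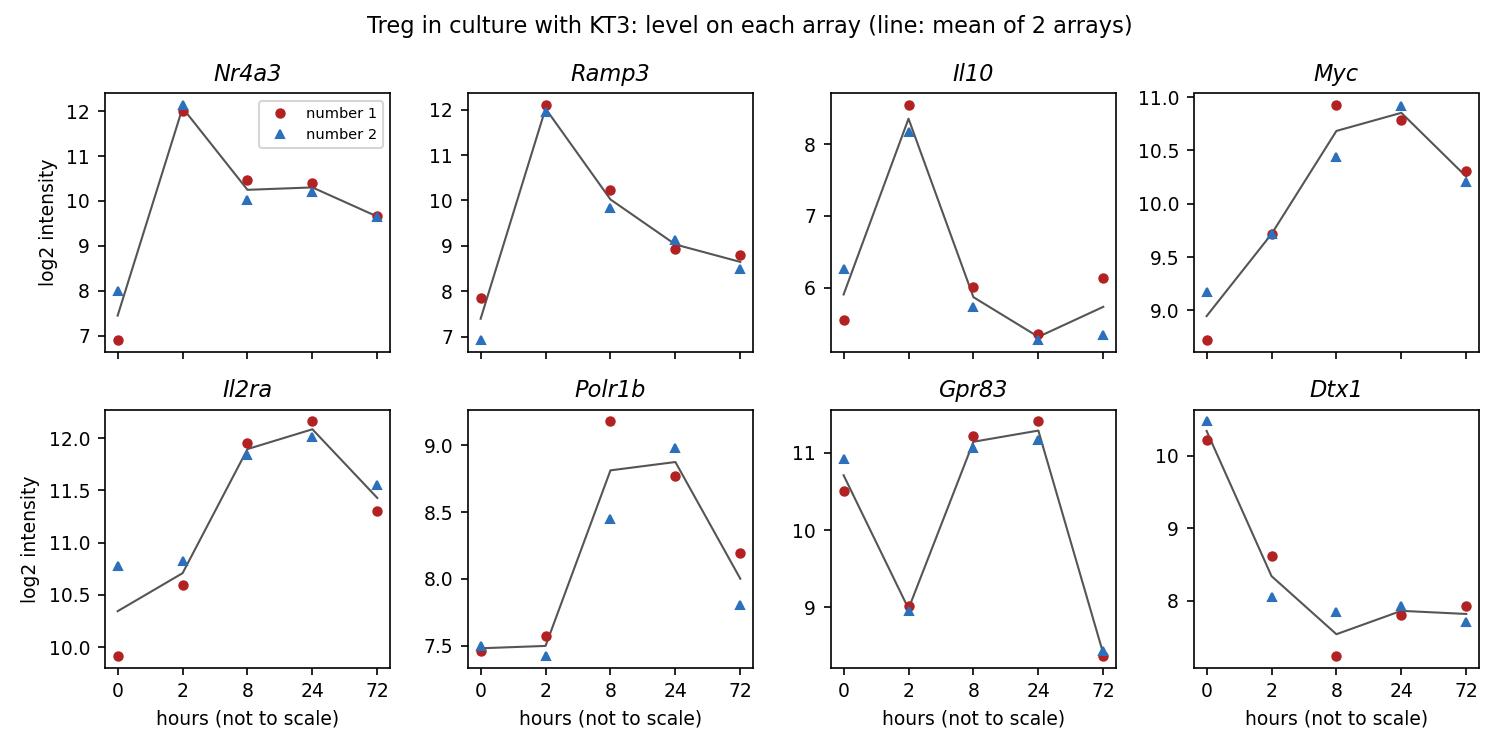
Log2 level in cultured Treg at 0, 2, 8, 24 and 72 h after KT3 (horizontal axis, even steps) for chosen genes, 1 panel each, with a point for each array and a line through the mean of both. Ramp3 is highest at 2 h (12.10 and 11.95), while Polr1b is at 7.58 and 7.42 at 2 h and at 9.18 and 8.45 at 8 h.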

How the data were processed

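RNA of sorted Treg and Tconv was hybridized to Affymetrix ST1.0 arrays. The authors' deposited values are intensities on a linear scale, 1 per transcript cluster and array (4.84 to 29756, array medians 87.6 to 116.4). Per the series design text, RNA was amplified and labelled, and RMA was run in GenePattern. The submitters' processing notes name Affymetrix Power Tools beside RMA. No versions are given in the sources used here. The background step of RMA shrinks changes of dim genes.

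Of 24922 clusters, 21425 had 1 symbol, 1399 several and 2098 none listed. For the 921 symbols with more than 1 cluster the brightest was kept. A gene was tested if it exceeded the median of its array in 2 or more arrays (12425 genes), and 7327 were removed as dim. Log2 values were fitted with limma 3.58.1 (R 4.3.3), with 22 group means over all 42 arrays and a term for the array number within each setting (18 residual and 5.72 prior degrees of freedom). Tests were two-sided. The number term follows the stated pairing: in culture the same number is the same sex and age. Deviations of same-numbered groups correlated from -0.45 to 0.71 (median 0.22, over 0.1 in 28 of 45 pairs), and by 0.23 between Treg at 0 h and 2 h. No arrays held identical values. The number of arrays limits the precision.

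Genes were named by rule: the largest called changes of each comparison and up to 4 called members of each list by size. The largest rises and falls were picked among genes without overlap between the times and with the same sign in both numbers. Symbols of predicted genes and receptor segments were left out. Fos, Jun, Myc, Cd69, Il2, Il21, Il2ra, Cish, Klf2, Ikzf2, Nt5e, Mcl1, Bcl2, Ell2, Tubb2a, Errfi1 and other genes that were not called or not among these were chosen after their values were seen. The comparison, its members and the gene lists were chosen with earlier results of these data known. Alternatives were the scaling, offset, filter, cluster choice, block, arrays fitted, array weights and each array left out. Python 3.11.15, numpy 2.4.6, pandas 2.3.3 and matplotlib 3.10.9 were used, and the fit was tested on simulated data.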

Additional observations from a re-analysis of the deposited data

Results flagged for a closer look

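The response of cultured Treg differed from that of cultured Tconv, by limma's test of the difference itself, for 25 genes. The change was higher in Treg for the named genes Plagl1 (3.54), Lrrc32 (2.99), Slc16a3 (2.34), Itgb8 (2.26) and Zc3h12c (1.85). It was lower in Treg for Tnf (-2.25), Irf4 (-2.21), Egr2 (-2.20), Fasl (-2.20) and Sema7a (-2.0). The response of Treg in culture differed from that in vivo for 603 genes. The named ones were Ramp3 (4.63), Bcl6 (3.61), Vps37b (3.39), Nr4a2 (3.17) and Rnf125 (3.12), higher in culture, and Tbx21 (-3.42), Gadd45g (-3.27), Mfsd2a (-3.24), Lif (-3.01) and Hk2 (-3.01), lower in culture.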

How the results depend on the processing

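Where a named gene was called in the fit above or in an alternative, its change from 0 h to 2 h kept its direction. Direction was not compared for named genes called in neither. Of 89 named genes called in Treg, 61 kept the call without each single array, 50 that rose and 11 that fell. The count of 890 was 376 on the 20 culture arrays only, 340 to 1054 without single Treg arrays and 1866 without the Tconv 0 h array of number 1. It was 2083 without the Tconv culture arrays, an alternative chosen after seeing the data. Without the replicate block it was 701. The count of 25 differences from Tconv was 15 after median centring, 39 with the offset, 2 on the culture arrays only, 0 with array weights, 9 with interquartile scaling and no replicate block, and 5 to 4879 without single arrays; without the block it was 18. The count of 603 differences from in vivo was 392 after centring, 396 after interquartile scaling, 1028 without the 3 culture arrays of narrowest range, 281 with interquartile scaling and no replicate block, 1382 without the Tconv culture arrays and 277 to 1231 without single arrays; without the block it was 457. The 88 calls over the lists were 56 to 115 without single arrays, and the 296 genes past 2-fold in both numbers were 232 to 357 over the scalings and the offset. The cause of these changes was not tested. With 2 arrays per group, genes near background can show only part of a change.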
